A study of Rattus norvegicus with 6 samples.

Results

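Growing axons steer by secreted and membrane-bound cues that attract or repel the growth cone, the motile tip of the axon. The main families are the ephrins and their Eph receptor tyrosine kinases, the semaphorins with their plexin and neuropilin receptors, the Slits with their Robo receptors, and netrin with its receptors Dcc and Unc5. In retinal ganglion cells (RGCs), the output neurons of the retina, these systems guide axons across the retina, out through the optic nerve, past the optic chiasm and onto a map in the brain, and several of them later act at synapses. A list of 48 genes of these families was examined here in cultured rat RGCs, together with Nogo (Rtn4) and its receptor, the collapsin response mediator proteins that carry semaphorin signals to the cytoskeleton, and the adhesion molecules L1cam and Nrcam. Of the 48 genes, 43 have a probe set with a single gene symbol among the 14217 genes named on the array, and the other 5 (Ephb2, Efna2, Efna3, Efnb2 and Plxnb3) were not analysed here.

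The RGCs came from rat pups at postnatal day 6 and were purified by immunopanning (capture on antibody-coated dishes). They were kept for 12 days in culture in growth medium with BDNF, CNTF and forskolin, which all groups share. They were left without added protein (Untreated) or given glypican 4 (Gpc4), an astrocyte-secreted proteoglycan that induces active synapses, or thrombospondin 1 (TSP1), an astrocyte-secreted protein that induces synapses without AMPA receptors, for 12 hours. The Gpc4 carried a His tag and was purified from what HEK293 cells (a human embryonic kidney line) had secreted, the TSP1 was a purchased recombinant protein, and no array had RGCs given another protein made in the same way. There are 2 arrays per group, 1 from each of 2 RGC cultures, so 6 arrays in all, and the question for each treatment is whether 12 hours of it changed the mRNA of guidance genes.

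Values are log2 RMA expression values, in which 1 unit is a 2-fold difference. The median of each array lay between 5.96 and 5.99. No detection calls were used, so a signal below that median may be background, and a difference there can understate a change in mRNA. Probe sets differ in how brightly they report an mRNA, so the levels do not rank the genes by abundance. Of the RGC markers, 12 of 14 were measured and all 12 lay above the array median, and their summed level stayed within 16.30 and 16.33 on the log2 scale. Of the markers of other cells, 5 of 6 fibroblast, 2 of 8 astrocyte and Müller glia, 1 of 7 microglia, 3 of 6 oligodendrocyte, 1 of 5 endothelial, 4 of 8 amacrine, bipolar and horizontal, and 0 of 4 photoreceptor genes lay above the median in Untreated. The values describe whole cultures, in which fewer cells of a type and less RNA per cell cannot be told apart.

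Most of the guidance genes lay above the array median in RGCs without added protein. In Untreated this held for 35 of the 43, and the levels of all 43 ran from 4.22 (Dcc) to 13.23 (Dpysl2) with a median of 7.63. The level of each gene below is the mean of the 2 Untreated arrays on the log2 scale.

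**Figure D1:**
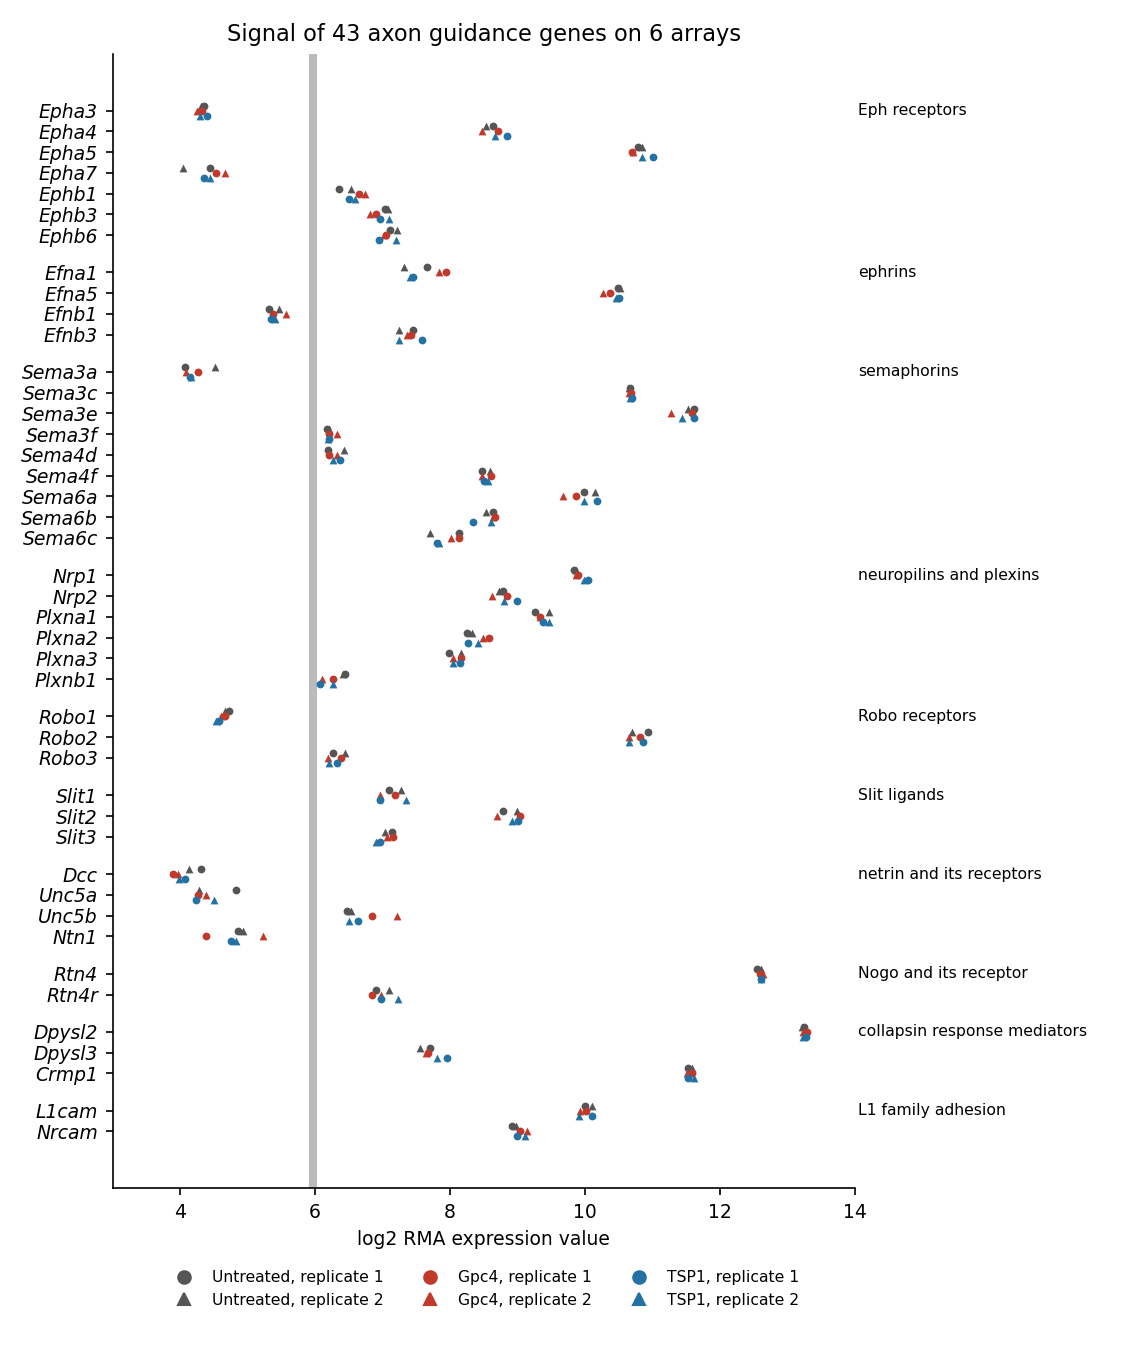
Each row is 1 guidance gene and each symbol 1 array, with the log2 RMA expression value on the horizontal axis, groups by colour and replicates by shape; the grey band marks the medians of the 6 arrays. The 6 symbols of a gene lie close together beside the spread from 4.22 to 13.23 between genes in Untreated, and 8 genes lie left of the band.

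Among the Eph receptors, which read ephrins on neighbouring cells, Epha5 was at 10.81 ± 0.05 (SD, n = 2) and Epha4 at 8.59 ± 0.08 (SD, n = 2). Ephb3 (7.06), Ephb6 (7.16) and Ephb1 (6.44) also lay above the array median, whereas Epha3 (4.34) and Epha7 (4.24) lay below it. EphA receptors are known for setting where RGC axons end along the map in their targets, and Ephb1 is known for the turning of a subset of RGC axons at the optic chiasm. Of their ligands, Efna5 was at 10.51, Efna1 at 7.49 and Efnb3 at 7.34. Efnb1 was at 5.39, below the array median.

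The semaphorins, many of which repel axons, spanned both ends of the range. The secreted Sema3e and Sema3c were at 11.57 ± 0.06 (SD, n = 2) and 10.66 ± 0.01 (SD, n = 2). Sema3f (6.19) lay just above the array median, and Sema3a, the classical growth cone collapsing factor, was at 4.29 ± 0.32 (SD, n = 2), below it. Of the membrane-bound members, Sema6a was at 10.07, Sema6b at 8.59, Sema4f at 8.54, Sema6c at 7.92 and Sema4d at 6.31. All 6 receptors of the list measured here lay above the median, whereas Plxnd1, a plexin outside the list, was at 5.405, below it. The neuropilins, which bind the secreted semaphorins, were at 9.86 (Nrp1) and 8.76 (Nrp2), and the plexins, which carry the signal across the membrane, at 9.36 (Plxna1), 8.29 (Plxna2), 8.08 (Plxna3) and 6.43 (Plxnb1).

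Of the Robo receptors, Robo2, which acts in RGC axon pathfinding, was at 10.81, Robo3 at 6.36 and Robo1 at 4.69, below the array median. All 3 Slits, the repellent ligands, lay above it, with Slit2 at 8.88, Slit1 at 7.18 and Slit3 at 7.08. The netrin group was mostly below the median. Dcc (4.22), the attractive netrin receptor through which RGC axons leave the eye, Unc5a (4.55) and netrin 1 itself (Ntn1, 4.89) lay below, and Unc5b, a repulsive netrin receptor, was at 6.51.

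Rtn4, which encodes the Nogo proteins that limit axon growth, was at 12.57 and its receptor Rtn4r at 7.00. The collapsin response mediators Dpysl2 (13.23) and Crmp1 (11.56) were bright, and Dpysl3 was at 7.63. L1cam, an adhesion molecule of growing axons, was at 10.06 and its relative Nrcam at 8.95.

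No guidance gene passed the test with Gpc4. Over all probe sets 0.0838% were called at an adjusted p under 0.05 (limma's test, two-sided, Benjamini-Hochberg adjustment over 31042 probe sets), against 0 of the 43 genes, whose smallest adjusted p was 0.48. With the culture as a replicate block 0.206% of probe sets were called and again 0 of the 43, with a smallest adjusted p of 0.28. The log2 fold changes ran from -0.30 (Sema6a) to 0.52 (Unc5b) around a median of -0.02, beside -0.01 over all named genes. Positive values were found in 19 genes, negative in 23 and 0 in Sema4f.

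The test leaves room for small changes. The standard error of a gene's log2 fold change was 0.08 to 0.23 (median 0.10). The 95% interval lay within 1.5-fold in either direction for 38 of the 43 genes with Gpc4, and within 2-fold for all 43. The smallest log2 fold change that passed the test with Gpc4 in any probe set was 0.71 in size.

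**Figure D2:**
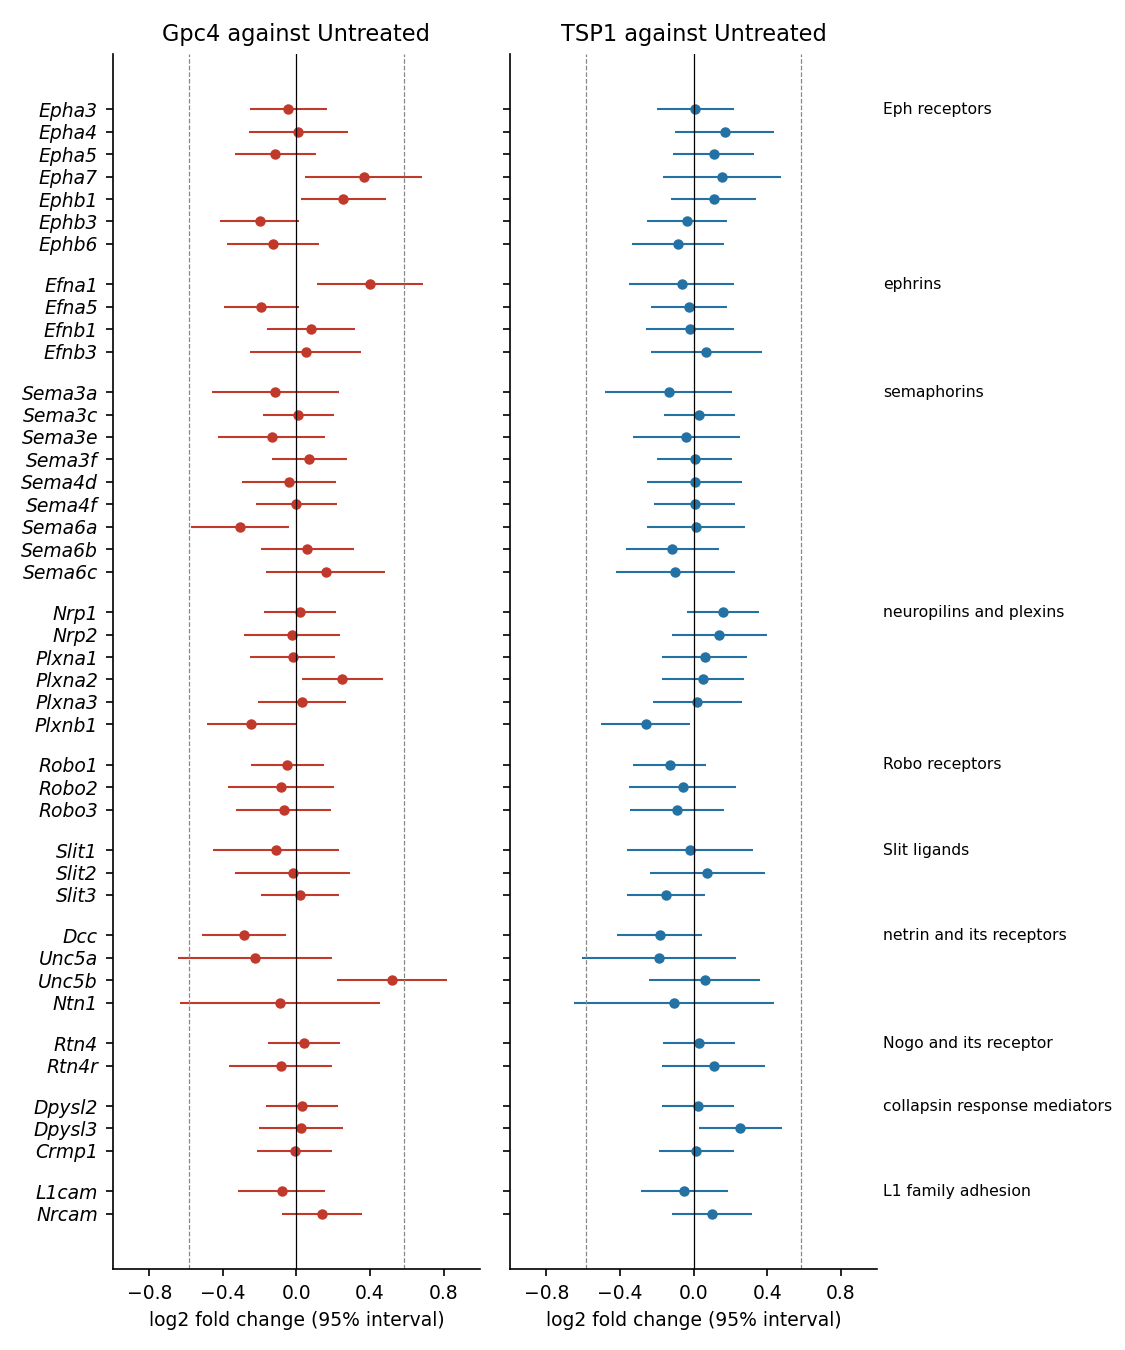
Log2 fold changes (points) with their 95% intervals (lines) against Untreated for 43 guidance genes by family, with Gpc4 on the left and TSP1 on the right; dashed lines mark 1.5-fold in either direction. With Gpc4 5 intervals reach the dashed lines and with TSP1 2 do.

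At an unadjusted p under 0.05, a threshold that makes no allowance for the number of genes, 8 of the 43 genes (18.6%) were counted with Gpc4, 5 with a higher and 3 with a lower value, against 6.95% of all named genes. These are Unc5b, Efna1, Epha7, Plxna2 and Ephb1 on the higher side and Dcc, Sema6a and Plxnb1 on the lower. None of them is shown to have changed after adjustment, and their values follow by family.

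Unc5b, the repulsive netrin receptor, read 6.48 and 6.54 in Untreated, 6.85 and 7.21 with Gpc4, and 6.64 and 6.50 with TSP1. Both Gpc4 arrays lay above the other 4. Its difference between Gpc4 and Untreated was 0.52 ± 0.13 (SE, log2), or 1.43-fold, with a 95% interval of 0.22 to 0.82 and an adjusted p of 0.48 in limma's test. A second, dimmer probe set for Unc5b, with a mean of 4.42 over the 6 arrays, differed by 0.01. Dcc, its attractive counterpart, read 4.31 and 4.13 in Untreated, 3.90 and 3.97 with Gpc4, and 4.08 and 3.99 with TSP1. All 6 of these values lie below the array median, the Gpc4 pair lowest, and the difference between Gpc4 and Untreated was -0.28 ± 0.10 (SE, log2) with an adjusted p of 0.67 in limma's test.

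Efna1, a ligand of EphA receptors, read 7.66 and 7.32 in Untreated, 7.94 and 7.84 with Gpc4, and 7.45 and 7.40 with TSP1. The Gpc4 arrays lay above the other 4, although the Untreated pair was 0.34 apart. The difference between Gpc4 and Untreated was 0.40 ± 0.12 (SE, log2), or 1.32-fold, with an adjusted p of 0.62 in limma's test. The second probe set for Efna1 pointed the same way, at 7.00 and 6.43 in Untreated and 7.24 on both Gpc4 arrays.

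Efna5, a repellent ligand in the visual targets of RGC axons, read 10.49 and 10.52 in Untreated, 10.37 and 10.26 with Gpc4, and 10.50 and 10.46 with TSP1. The Gpc4 arrays were the lowest of the 6, by a difference of -0.19 ± 0.09 (SE, log2) from Untreated, with an adjusted p of 0.75 in limma's test.

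Epha7 read 4.44 and 4.04 in Untreated, 4.54 and 4.67 with Gpc4, and 4.35 and 4.44 with TSP1. This receptor lay below the array median on every array, and its Untreated arrays were farther apart than the means of Gpc4 and Untreated. Ephb1 read 6.35 and 6.53 in Untreated, 6.65 and 6.74 with Gpc4, and 6.51 and 6.59 with TSP1. Its Gpc4 arrays were the highest, with a difference of 0.25 ± 0.10 (SE, log2) from Untreated and an adjusted p of 0.71 in limma's test.

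Sema6a, a membrane-bound semaphorin that signals through A-type plexins, read 9.99 and 10.15 in Untreated, 9.86 and 9.67 with Gpc4, and 10.18 and 9.99 with TSP1. The Gpc4 arrays were the lowest of the 6, with a difference of -0.30 ± 0.11 (SE, log2) from Untreated and an adjusted p of 0.70 in limma's test. Of its 4 other probe sets, the 2 brighter ones differed by -0.36 and -0.38 and the 2 dimmest by -0.04 and 0.01. The value is therefore not that of a single probe set, though the probe sets share the same RNA samples.

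Plxna2, a receptor for class 6 semaphorins, read 8.25 and 8.32 in Untreated, 8.58 and 8.49 with Gpc4, and 8.26 and 8.41 with TSP1. The Gpc4 arrays were again the highest, by 0.25 ± 0.10 (SE, log2) over Untreated, with an adjusted p of 0.70 in limma's test. A second probe set at a similar brightness differed by 0.31 and a dimmer one by -0.01. Plxnb1, a receptor for Sema4d, read 6.44 and 6.42 in Untreated, 6.27 and 6.10 with Gpc4, and 6.08 and 6.26 with TSP1. Both treated pairs lay below the Untreated pair, with differences of -0.24 for Gpc4 and -0.26 for TSP1 (log2), and both comparisons share the Untreated arrays. Its 2 other probe sets differed by 0.04 and -0.18 with Gpc4.

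**Figure D3:**
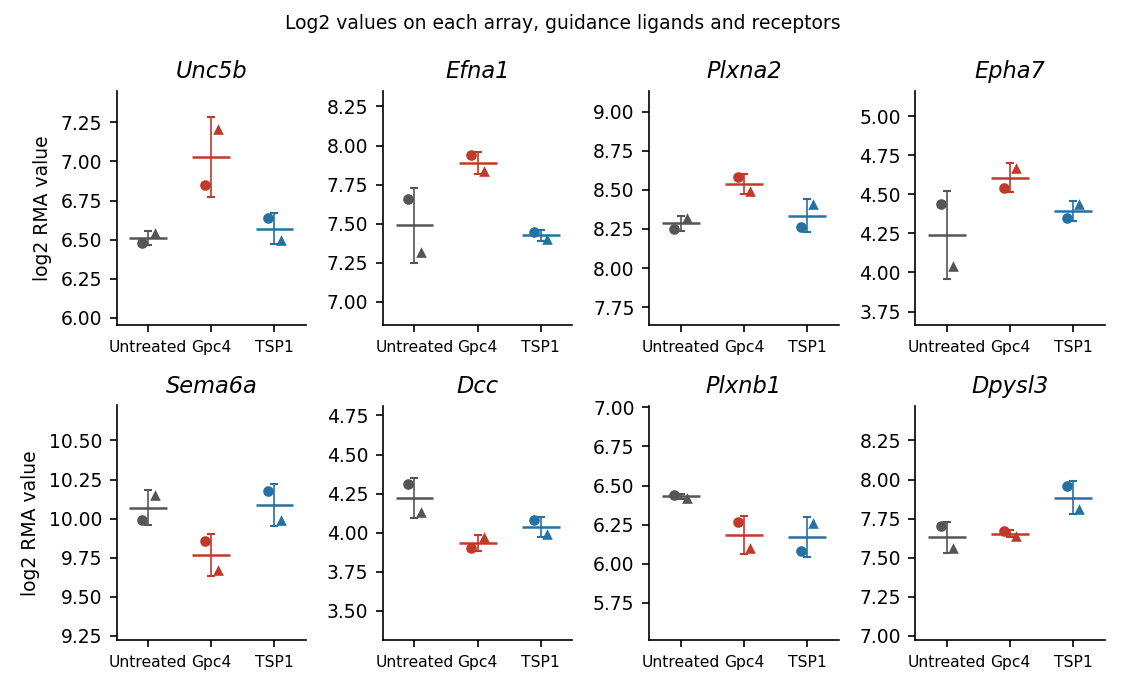
Log2 RMA values of 8 guidance genes on each array, with Untreated in grey, Gpc4 in red and TSP1 in blue, replicate 1 as circles and replicate 2 as triangles; horizontal lines are group means, error bars the SD of 2 arrays, and each panel spans 1.5 log2 units. The Gpc4 arrays lie above all others for Unc5b, Efna1, Plxna2 and Epha7, and below all others for Sema6a and Dcc.

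The probe sets of Nrp1, the receptor for class 3 semaphorins and also a VEGF co-receptor, did not move together. The brighter one, used here, read 9.84 and 9.87 in Untreated and 9.89 and 9.86 with Gpc4. The other read 9.07 and 9.18 in Untreated, 8.84 and 8.35 with Gpc4, and 8.86 and 8.98 with TSP1, a difference of -0.53 between Gpc4 and Untreated. The first shows no difference beyond its error of 0.08 (SE, log2), so a statement on Nrp1 depends on the probe set.

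Ephb3, a receptor for B-class ephrins, read 7.04 and 7.08 in Untreated and 6.91 and 6.81 with Gpc4, without passing the test. Differences were smaller in several other families. The 3 Robo receptors differed by -0.09 to -0.05 (log2), the 3 Slits by -0.11 to 0.02, and Rtn4 and its receptor by -0.09 to 0.04. The 3 collapsin response mediators differed by -0.01 to 0.03. Dpysl2, which organises microtubules in axons, read 13.24 and 13.22 in Untreated and 13.29 and 13.23 with Gpc4, so both groups overlap. Sema3c, at 10.66 and 10.65 in Untreated and 10.68 and 10.65 with Gpc4, was as close. Ntn1 was the least steady, with 4.86 and 4.93 in Untreated but 4.38 and 5.23 on the 2 Gpc4 arrays, all below the array median.

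Against Untreated the median sizes of the differences were close to those of all named genes, and the shares reaching 0.2 (log2) differed more. The median size was 0.08 (log2) with Gpc4 over the 43 genes and 0.09 over all named genes, and with TSP1 it was 0.07 and 0.08. Differences of 0.2 or more with Gpc4 were found in 10 of the 43 genes (23.3%), against 14.5% of all named genes. With TSP1 they were found in 2 (4.65%), against 11.2%. The Gpc4 sizes at the 98th percentile were close again, at 0.419 (log2) for the 43 genes and 0.405 for all named genes. Between Gpc4 and TSP1 the median size was 0.09 over the 43 genes and 0.07 over all named genes, and 8 genes (18.6%) reached 0.2, against 10.6%. No test of these shares was made, because the genes were chosen with earlier results of these data known.

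**Figure D4:**
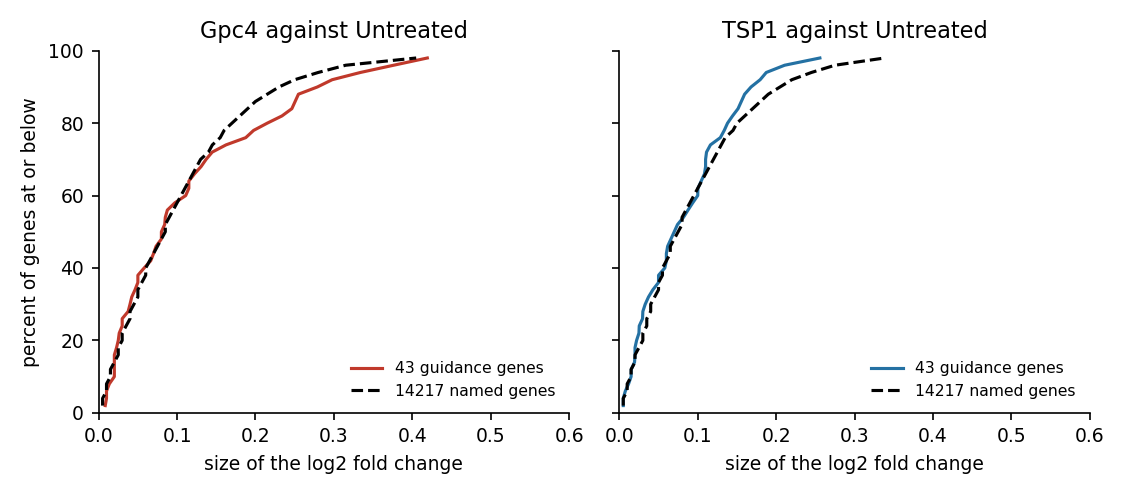
Percent of genes (vertical axis) whose log2 fold change against Untreated is at or below a given size (horizontal axis), up to the 98th percentile, for 43 guidance genes (solid) and all 14217 named genes (dashed), with Gpc4 on the left and TSP1 on the right. The curves run close together up to the medians; at the 90th percentile the guidance genes are at 0.28 and all genes at 0.23 with Gpc4, and at 0.17 and 0.20 with TSP1.

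With TSP1 no guidance gene passed the test either. Of all probe sets 0% were called, and 0.0129% with the replicate block, against 0 of the 43 genes both times, with smallest adjusted p-values of 0.98 and 0.71 in limma's test. The differences ran from -0.26 (Plxnb1) to 0.25 (Dpysl3) around a median of 0.005 (log2), beside -0.005 over all named genes. The 95% interval lay within 1.5-fold for 41 of the 43 genes and within 2-fold for all 43. At an unadjusted p under 0.05, 2 genes (4.65%) were counted, Dpysl3 and Plxnb1, against 4.16% of all named genes.

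Dpysl3, a collapsin response mediator of growth cones, read 7.70 and 7.56 in Untreated, 7.67 and 7.64 with Gpc4, and 7.96 and 7.81 with TSP1. The TSP1 arrays lay above the other 4, by 0.25 ± 0.10 (SE, log2) over Untreated, with an adjusted p of 0.98 in limma's test. Its second, dimmer probe set differed by -0.04.

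Nrp1 read 10.04 and 9.99 with TSP1, above both Untreated arrays in the brighter probe set. Its relative Nrp2 read 8.78 and 8.73 in Untreated, 8.84 and 8.62 with Gpc4, and 8.99 and 8.80 with TSP1. Epha4, a receptor for both ephrin classes, read 8.64 and 8.53 in Untreated, 8.71 and 8.48 with Gpc4, and 8.85 and 8.66 with TSP1. In the probe sets used for these 3 receptors both TSP1 arrays lay above both Untreated arrays. The differences of 0.16, 0.14 and 0.17 on the log2 scale did not pass the test. The dimmer probe set of Nrp1, given above, went the other way.

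On the lower side, Slit3 read 7.14 and 7.03 in Untreated, 7.15 and 7.06 with Gpc4, and 6.96 and 6.91 with TSP1. Robo1 read 4.72 and 4.66 in Untreated, 4.67 and 4.61 with Gpc4, and 4.58 and 4.54 with TSP1, all below the array median. Their TSP1 arrays were the lowest of the 6, by -0.15 ± 0.09 and -0.13 ± 0.09 (SE, log2) from Untreated, neither past the test.

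Set directly against each other, Gpc4 and TSP1 gave 0 called genes among the 43, without the block (0.0612% of all probe sets called) and with it (0.258%), with smallest adjusted p-values of 0.77 and 0.25 in limma's test. The median difference was -0.02 (log2), beside -0.005 over all named genes. At an unadjusted p under 0.05, 5 genes (11.6%) were counted against 4.81% of all named genes: Efna1 and Unc5b with higher values on the Gpc4 arrays, and Sema6a, Epha5 and Dpysl3 with lower ones.

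Efna1 differed by 0.46 ± 0.12 (SE, log2) between Gpc4 and TSP1, or 1.38-fold, with an adjusted p of 0.77 in limma's test. Unc5b differed by 0.46 ± 0.13 (SE, log2) and Sema6a by -0.32 ± 0.11 (SE, log2). For these 3 genes the TSP1 difference from Untreated was small, at -0.06, 0.06 and 0.01 on the log2 scale.

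Epha5, an EphA receptor of the retinal map, read 10.78 and 10.85 in Untreated, 10.69 and 10.71 with Gpc4, and 11.01 and 10.84 with TSP1. Its Gpc4 arrays were the lowest and 1 TSP1 array the highest. Sema6c read 8.13 and 7.71 in Untreated, 8.14 and 8.02 with Gpc4, and 7.81 and 7.83 with TSP1, so the Untreated pair spanned nearly the whole range of the gene.

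No guidance gene passed the test between the 2 cultures. Taking the replicate number as the culture, 0.561% of all probe sets were called between culture 2 and culture 1 in a fit with the group as a term, and 0 of the 43 genes, with a smallest adjusted p of 0.34 in limma's test. At an unadjusted p under 0.05, 5 genes (11.6%) were counted against 10.8% of all named genes. Robo2, Sema3e, Epha4 and Efnb3 were on the lower side in culture 2 and Rtn4r on the higher.

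Robo2, the Slit receptor, read 10.94, 10.81 and 10.86 in culture 1 (Untreated, Gpc4 and TSP1) and 10.69, 10.65 and 10.65 in culture 2. Every culture 2 array lay below every culture 1 array, with a mean difference of -0.21 ± 0.07 (SE, log2). Sema3e, a ligand of the plexin D class, read 11.61, 11.59 and 11.62 in culture 1 and 11.53, 11.28 and 11.44 in culture 2. Efnb3, a membrane-spanning ephrin, read 7.45, 7.42 and 7.58 in culture 1 and 7.24, 7.37 and 7.25 in culture 2. Both were lower in culture 2 within each group, and so was Epha4, whose values are given above.

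Rtn4r read 6.90, 6.84 and 6.98 in culture 1 and 7.09, 6.98 and 7.23 in culture 2, higher in culture 2 within each group by a mean of 0.19 ± 0.07 (SE, log2). Efnb1, another membrane-spanning ephrin, read 5.32, 5.38 and 5.35 in culture 1 and 5.47, 5.57 and 5.40 in culture 2. Ntn1 differed by 0.33 ± 0.15 (SE, log2), mostly through the Gpc4 pair, and Ephb1 by 0.12 ± 0.07 (SE, log2), and both were higher in culture 2 within each group.

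Markers of other cells differed between the cultures and, for a few genes, between treatments. The summed level of 6 fibroblast markers was 8.60, 8.89 and 8.31 in culture 1 (Untreated, Gpc4 and TSP1) and 9.84, 9.45 and 9.11 in culture 2. Of all markers outside RGCs, Dcn and Lum, matrix proteoglycans of fibroblasts, and Gad1, a GABA-synthesising enzyme of amacrine cells, passed the test between cultures (adjusted p of 0.010, 0.0031 and 0.016 in limma's test). Dcn and Lum also differed by -1.49 and -1.64 (log2) between TSP1 and Untreated without passing the test, and for Gpc4 against TSP1 they passed it with the replicate block (adjusted p of 0.026 and 0.0086 in limma's test) but not without. The summed level of 7 microglia and macrophage markers was 8.13, 8.03 and 8.11 in culture 1 and 7.74, 7.89 and 7.80 in culture 2. Pdgfra, of the oligodendrocyte list, read 6.32 and 7.77 in Untreated, 6.35 and 7.75 with Gpc4, and 5.77 and 5.62 with TSP1. Gad2, of the amacrine, bipolar and horizontal list, differed by -0.495 (log2) between Gpc4 and TSP1. Neither gene passed the test between treatments, with or without the replicate block.

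With Gpc4 the summed level of 5 endothelial markers was 8.21 and 8.32 against 7.49 and 7.82 in Untreated, and a single gene carried it. Kdr, the VEGF receptor 2, differed by 0.83 (log2) from Untreated without passing the test, and by 1.13 from TSP1 with an adjusted p of 0.11 in limma's test and 0.017 with the replicate block. The other 4 endothelial markers lay below the array median and went both ways, with Pecam1 at 0.22, Tek at 0.07, Cldn5 at -0.13 and Vwf at -0.04. The summed level of 8 astrocyte and Müller glia markers was 10.62 and 10.61 with Gpc4 and 10.54 and 10.46 with TSP1, against 10.21 and 10.38 in Untreated. The difference with Gpc4 was carried mostly by Glul, glutamine synthetase, at 0.39 (log2), and Glul differed by 0.26 with TSP1. Of the 8 markers, 6 had a positive difference with Gpc4, among them Gfap at 0.305, Aldh1l1 at 0.15 and S100b at 0.135. The 2 negative ones were Aqp4 at -0.11 and Gjb6 at -0.14, and none of the 8 passed the test. With TSP1 5 were positive and 3 negative, with Gfap at -0.265. Unc5b and Nrp1 are also known from endothelial cells. The part of these markers in the values of the guidance genes was not tested.

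Within a single culture the median of the 43 genes stayed close to 0. For Gpc4 against Untreated it was 0.03 in culture 1 and -0.05 in culture 2 (log2), and for TSP1 against Untreated 0.04 and -0.01. With Gpc4 25 of the 43 genes had the same sign in both cultures, 13 higher and 12 lower, and with TSP1 19 did, 12 higher and 7 lower. The same counts were not made over all named genes, so they do not show whether this agreement is particular to the guidance genes. Arrays of the same group differed by a median of 0.11 (log2) over the 43 genes in each group.

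Other genes of the same pathways were read from a second list of 84 genes, of which 71 were measured. None passed the test in any comparison, and at an unadjusted p under 0.05 9 (12.7%, against the 6.95% of all named genes given above) were counted with Gpc4, 2 on the higher and 7 on the lower side. With the replicate block 1 gene, Ngfr, was called, both for Gpc4 against Untreated and for Gpc4 against TSP1, where 0.206% and 0.258% of all probe sets were called.

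Ngfr encodes the p75 neurotrophin receptor, which is also a signalling partner of the Nogo receptor. It read 5.89 and 6.28 in Untreated, 6.70 and 7.00 with Gpc4, and 6.02 and 6.12 with TSP1. Both Gpc4 arrays lay above the other 4. The difference was 0.77 ± 0.15 (SE, log2) over Untreated, with an adjusted p of 0.30 in limma's test and 0.039 with the replicate block, and 0.78 over TSP1, with 0.34 and 0.032.

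Other members of the Nogo receptor group had values in both directions. Rtn4rl1, a relative of the Nogo receptor, read 8.73 and 8.94 in Untreated, 9.27 and 9.40 with Gpc4, and 9.08 and 9.11 with TSP1. Rtn4rl2, another relative, had a difference of -0.29 (log2) with Gpc4 and -0.18 with TSP1. Neither passed the test, and the ligand Rtn4 and receptor Rtn4r differed by 0.04 and -0.09 with Gpc4.

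**Figure D5:**
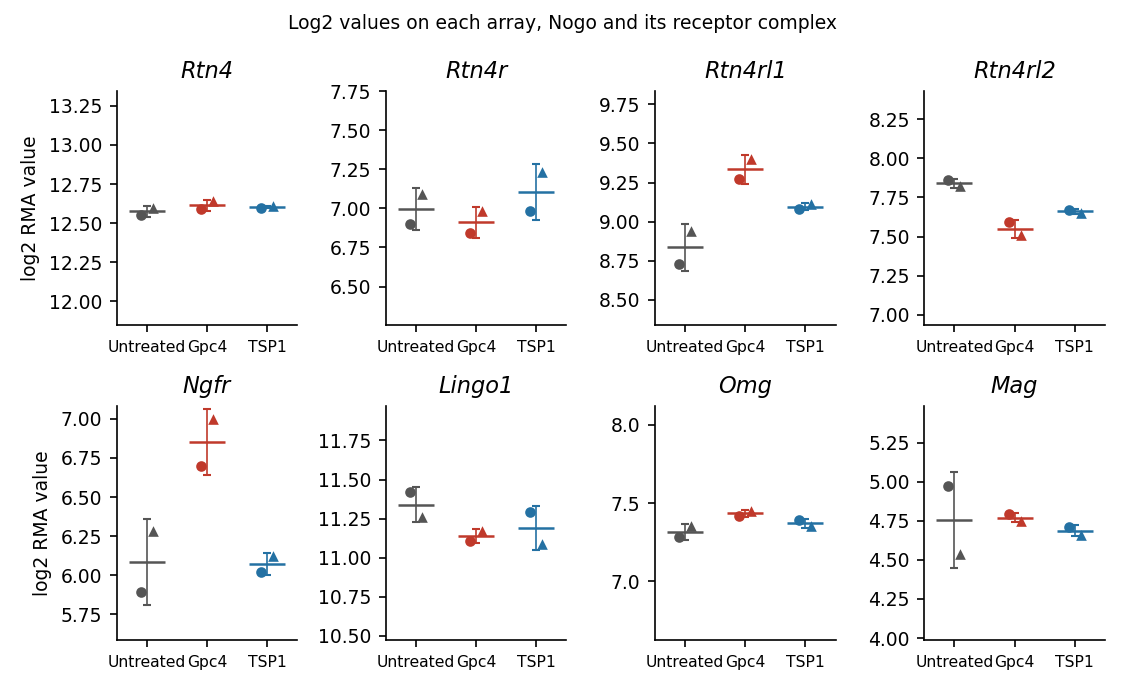
Log2 RMA values of Rtn4, its receptors Rtn4r, Rtn4rl1 and Rtn4rl2, the co-receptors Ngfr and Lingo1, and the further ligands Omg and Mag on each array, with Untreated in grey, Gpc4 in red and TSP1 in blue, replicate 1 as circles and replicate 2 as triangles; lines are group means, error bars the SD of 2 arrays, and each panel spans 1.5 log2 units. The Gpc4 arrays lie above all others for Ngfr, Rtn4rl1 and, by 0.12 on the log2 scale over Untreated, Omg, and below all others for Rtn4rl2.

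Of 10 other adhesion molecules with roles in guidance, 9 had a negative difference with Gpc4, with a median of -0.12 (log2), and none passed the test. Over all 14217 named genes 7415 were negative with Gpc4, with a median of -0.01, and the difference was not tested. With TSP1 6 of the 10 were negative and 3 positive, with a median of -0.115 (log2). Both comparisons share the Untreated arrays. Chl1, the close relative of L1cam, read 10.03 and 9.81 in Untreated, 9.52 and 9.33 with Gpc4, and 9.70 and 9.78 with TSP1. Its Gpc4 arrays were the lowest, with a difference of -0.49 from Untreated and an adjusted p of 0.41 in limma's test, beside -0.08 for L1cam and 0.14 for Nrcam. Cntn1, a contactin, read 7.60 and 7.59 in Untreated, 7.41 and 7.20 with Gpc4, and 7.25 and 7.43 with TSP1, lower in both treated groups.

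Draxin, a secreted repellent that binds Dcc, read 4.47 and 4.51 in Untreated, 4.69 and 4.56 with Gpc4, and 4.99 and 4.71 with TSP1, all below the array median. Plxnc1, the receptor for Sema7a, read 7.80 and 7.88 in Untreated, 7.62 and 7.42 with Gpc4, and 7.85 and 8.01 with TSP1. Ntn5, a netrin relative, read 3.71 and 3.62 in Untreated, 3.56 and 3.52 with Gpc4, and 3.86 and 3.83 with TSP1. The Gpc4 arrays of Plxnc1 and Ntn5 were the lowest of the 6, and neither gene passed the test in any comparison.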

How the data were processed

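The authors measured mRNA in cultured rat RGCs on 6 Affymetrix rat genome arrays and processed the scans with Affymetrix Expression Console, whose version is not given in the sources used here. RNA of 2 wells was pooled per condition. The values as deposited are on a log2 scale (RMA expression values): background-corrected, normalized between arrays, summarised per probe set and rounded to 2 decimals. Arrays were grouped by their labels, 2 each for Untreated, Gpc4 and TSP1, and none was left out.

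Differences were tested with limma (version 3.58.1, R version 4.3.3). A mean was fitted for each group to all 6 arrays with lmFit, followed by eBayes (two-sided, Benjamini-Hochberg over 31042 probe sets, adjusted p under 0.05), with 3 residual degrees of freedom and no filter on dim probe sets. Each gene was read from the probe set with a single symbol and the highest mean over the 6 arrays. The 43 guidance genes have 81 probe sets, and all 43 symbols match the RefSeq symbol of the gene identifier. The annotation gives 20826 probe sets 1 symbol, 436 several and 9780 none. Summed marker levels are the log2 of summed linear values. The members and the gene lists were chosen with earlier results of these data known. Genes given with every array value were, per comparison and direction, the 4 of smallest p with the same sign in both replicates, per culture direction the 4 of smallest p, and, of the second list, the 3 of smallest p per comparison and any past the threshold. Ephb3, Dpysl2, Sema3c, Rtn4rl2, the single markers of other cells and the further probe sets were added after their values were seen.

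Per the methods the experiment was repeated on 2 cultures. After subtraction of group means, arrays with the same number correlated over all probe sets (0.29, 0.35 and 0.37 for the 3 pairs of groups), so the number was taken as the culture and the fit with it as a replicate block was run too (2 residual degrees of freedom). The number of arrays limits the precision. Alternatives were other normalizations, filters on dim probe sets, other probe set rules, other variance settings, a t-test and leaving out each array in turn. The methods name a t-test for pairwise comparisons in general and state no test for the arrays beyond the software. The test was tested on simulated data. The plots were made in Python 3.11.15 (matplotlib 3.10.9).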

Additional observations from a re-analysis of the deposited data

How the results depend on the processing

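With 2 arrays per group, changes under 1.5-fold in a single gene are hard to tell from the spread between arrays. Larger ones can also fall short, as Ngfr at 0.77 (log2) with Gpc4 did not pass the test without the replicate block. Of the 43 guidance genes, 8 lay below the array median. The count of guidance genes past the threshold stayed at 0 in each comparison under every alternative that adjusts for the number of probe sets, including the replicate block and leaving out each array. A t-test without adjustment counted 1 gene for Gpc4 against Untreated (Plxna2) and 1 for TSP1 against Untreated (Nrp1). For Gpc4 against TSP1 it counted 2 (Efna1 and Nrp1). The shares of all named genes were 6.18%, 4.19% and 4.92%, and after Benjamini-Hochberg 0 of the 43 were counted. The median difference between Gpc4 and TSP1 over the 43 genes was -0.06 (log2) without Gpc4 replicate 1 and 0.01 without Gpc4 replicate 2. With the mean over its probe sets, the TSP1 difference of Nrp1 turned to -0.0225 (log2), since its other probe set differs by -0.20. The replicate block changed no call among the 43 genes. With it the log2 fold change of Unc5b with Gpc4 was 0.52 at an adjusted p of 0.28 in limma's test.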

Other observations

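The intracellular proteins that carry guidance signals to the cytoskeleton gave small differences with Gpc4. Of 28 measured effectors, 0 passed limma's test at an adjusted p under 0.05 with Gpc4. At an unadjusted p under 0.05, 1 (3.57%, against 6.95% of all named genes) was counted, Srgap2, a Slit-Robo GTPase activating protein. Srgap2 read 8.65 and 8.57 in Untreated, 8.47 and 8.26 with Gpc4, and 8.53 and 8.46 with TSP1. The median of the 28 was -0.0025 (log2). Of the small GTPases that set growth cone shape, Rac1 was at 12.29 and 12.29 in Untreated and 12.35 and 12.28 with Gpc4, and Cdc42 was at 12.39 and 12.40 in Untreated and 12.38 and 12.53 with Gpc4. Dscam, a netrin co-receptor, read 8.02 and 8.12 in Untreated and 7.84 and 7.60 with Gpc4. Flrt3, an adhesion molecule that modulates Robo signalling, read 9.22 and 9.27 in Untreated, 8.93 and 8.73 with Gpc4, and 9.09 and 9.07 with TSP1. For both genes the Gpc4 and TSP1 arrays lay below the Untreated arrays, and neither passed the test. These genes were singled out after their values were seen.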
